A study of Mus musculus with 12 samples.

Results

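Nfib peaks that were called in the mouse small cell lung cancer line KP22 and had no counterpart in the line KP1 are described here. A KP22 peak was taken when it lay on chromosomes 1 to 19 except 4 (mm9) and shared not even 1 base with a KP1 peak. This left 3012 peaks of the 9034 KP22 peaks on these chromosomes, and of 10120 in the whole KP22 list. The KP1 list held 22469 peaks on the same chromosomes.

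Chromatin immunoprecipitation with an Nfib antibody, followed by sequencing, gave 2 pulldown and 2 input libraries for each of 3 tumor-derived lines with the genotype Trp53-/-;Rb1-/-, grown as floating spheres. The labels class KP22 as Nfib low, and KP1 and 16T as Nfib high. Positions were used for KP22 and KP1, and 16T peaks were not analysed here. Each line had 1 peak list and each class was represented by 1 line here, so the level of Nfib and the line cannot be told apart.

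Nfib belongs to the nuclear factor I family of transcription factors, which bind DNA as dimers at sites built from the motif TTGGC in inverted repeat. In the lung the factor takes part in the maturation of the epithelium and the mesenchyme, and in small cell lung cancer its gene is often amplified and linked to metastasis. Its binding is often found at regulatory elements far from gene starts. A peak is an interval in which the pulldown held more reads than its background by the authors' peak caller.

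Peaks called only in KP22 made up 33.3% of the KP22 peaks compared (exact 95% binomial interval 32.4 to 34.3), and 6022 KP22 peaks overlapped KP1. In the other direction 73.2% of the KP1 peaks compared, 16448 in all, had no KP22 peak. The KP22-only peaks covered 641 kb, which was 27.9% of the bases under the KP22 peaks compared. The peaks were chosen by the overlap of peak positions in both lists, so widths, distances and shares by place are given as descriptions without a test. Reads and peak scores were not given, so the depth behind a peak is unknown, and a KP1 signal just under the calling threshold looks like no peak. Intervals of shares take each peak as independent of the others and include no error besides that of counting.

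Most KP22-only peaks were narrow. Their median width was 195 bases (quartiles 168 and 236), against 248 bases (198 and 319) in KP22 peaks that overlapped KP1 and 221 bases (171 and 309) in KP1-only peaks. The smallest width of the KP22 list, 159 bases, was held by 420 KP22-only peaks (13.9%) and by 302 overlapping ones (5.01%). Only 8 KP22-only peaks (0.266%) had at least 500 bases, against 262 (4.35%) of the overlapping ones.

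The wider a KP22 peak, the less often it lacked a KP1 peak. Of the 722 KP22 peaks of 159 bases, 58.2% (54.5 to 61.8) were KP22-only. Of the 2261 peaks of 200 to 249 bases, 35.2% (33.2 to 37.2) were, and of the 440 peaks of 400 to 499 bases, 9.55% (6.97 to 12.7). A wide peak has more bases with which to meet a KP1 peak, so the shares were computed again with every peak of both lists set to 150 bases around its midpoint. They were then 60.7% at 159 bases, 37.2% at 200 to 249 bases and 14.3% at 400 to 499 bases. Up to 499 bases the share thus fell with the deposited width in both counts. Setting peaks to 150 bases also drops overlaps away from the midpoints, and the part of width in the result was not tested. At 500 bases or more the share was 2.96% (1.29 to 5.75) as deposited and 18.1% at equal width, so the last step down was seen only in the peaks as deposited.

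**Figure D1:**
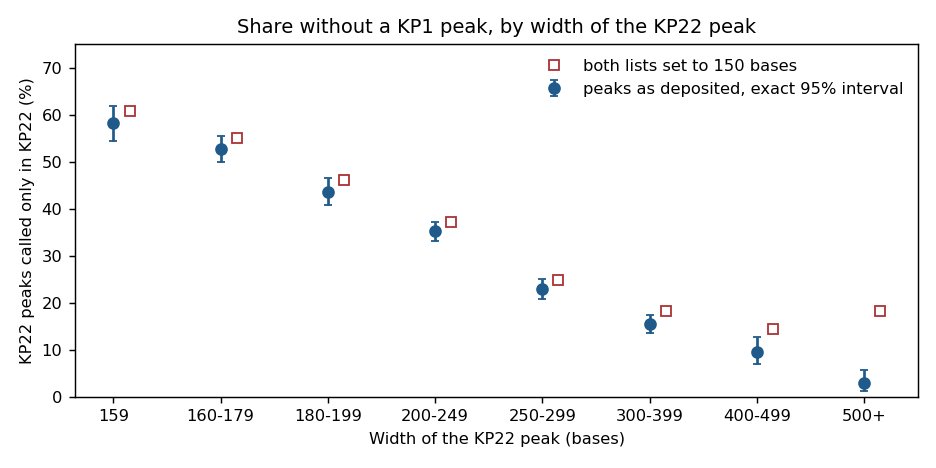
Share of KP22 peaks without a KP1 peak (%) by the width of the KP22 peak in bases, on chromosomes 1 to 19 except 4; circles are the peaks as deposited with exact 95% intervals and squares are both lists set to 150 bases around the midpoints. The circles fall from 58.2% at 159 bases to 2.96% at 500 bases or more, and only in the widest class do the squares stand far above them.

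The distance to the nearest KP1 peak, counted as the bases between the facing edges, had a median of 27.3 kb (quartiles 8.61 and 75.7). KP22-only peaks thus lay a little farther from KP1 peaks than overlapping KP22 peaks did from their next KP1 peak, which was at a median of 16.3 kb (3.92 and 46.1). The nearest KP1 peak stood at a lower coordinate for 1497 KP22-only peaks and at a higher one for 1515. Near misses were few: 260 KP22-only peaks (8.63%) had a KP1 peak within 1 kb, and 100 of them within 200 bases. More than 10 kb separated 2186 of them (72.6%) from any KP1 peak, and more than 100 kb separated 571 (18.96%). KP1-only peaks lay farther from the KP22 list, at a median of 53.5 kb (17.1 and 138), and that list is the shorter one.

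**Figure D2:**
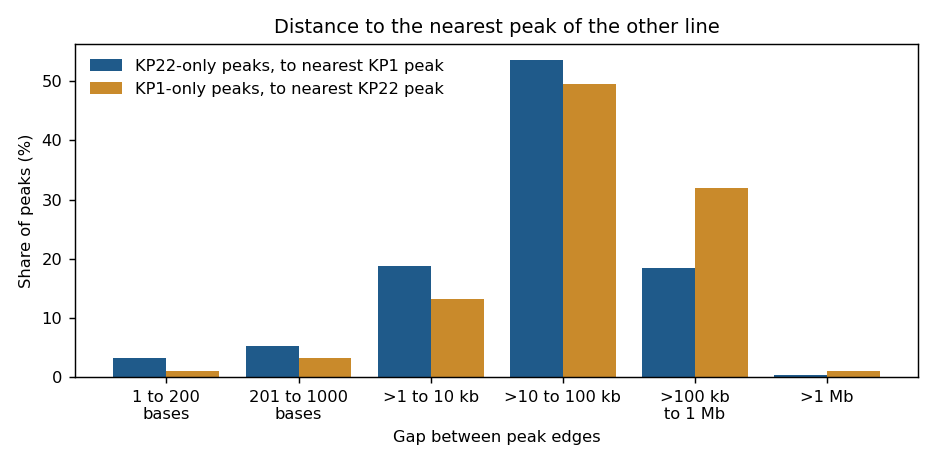
Share of peaks (%) by the gap to the nearest peak of the other line, for the 3012 KP22-only peaks (blue) and the 16448 KP1-only peaks (orange) on chromosomes 1 to 19 except 4. Of the KP22-only peaks, 53.6% lie over 10 to 100 kb from a KP1 peak and 3.32% within 200 bases.

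Close neighbours in KP1 were more often sites that KP22 also had. A KP1 peak lay within 1 kb of 260 KP22-only peaks. In 146 of these cases (56.2%, 49.9 to 62.3) that KP1 peak overlapped another KP22 peak. These 146 KP22-only peaks stood beside a shared site. Over all KP22-only peaks, the nearest KP1 peak was a shared one for 1021 (33.9%). Of all KP1 peaks compared, each counted once, 26.8% overlapped a KP22 peak. The same KP1 peak can be nearest to several KP22-only peaks. In 110 other cases within 1 kb, a KP22-only and a KP1-only peak were each other's nearest peak of the other line. At gaps over 10 to 100 kb the nearest KP1 peak was a shared one in 30.03% of cases. KP22-only peaks had a median width of 175.5 bases (quartiles 162.75 and 225) for gaps up to 200 bases. The median was 197 bases (169 and 236.5) over 10 to 100 kb, 190.5 bases (165 and 232) over 100 kb to 1 Mb and 202 bases over 1 Mb (13 peaks). The rule takes out any peak wide enough to meet the KP1 peak. How far this shapes the widths at the closest gaps was not tested.

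The threshold of 1 base separated few peaks. The KP22-only peak closest to KP1 lay on chromosome 15 from 101065467 to 101065866 (400 bases), 1 base from a KP1 peak that began at 101065868 and was shared with another KP22 peak. Next came a peak on chromosome 17 from 37095097 to 37095268 at a gap of 12 bases, and one on chromosome 9 from 15883581 to 15883776 at 19 bases. The remaining 7 of the 10 closest had gaps of 21 to 39 bases. On the other side of the threshold, the smallest overlaps were of 20 bases, on chromosome 5 from 119212373 to 119212547 and on chromosome 8 from 72877416 to 72877634. The 10 smallest overlaps reached 41 bases, while the median KP22 peak with an overlap shared 203 bases. Median widths were alike on both sides, at 193.5 bases for the 10 closest KP22-only peaks and 190 bases for the 10 smallest overlaps.

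The most remote KP22-only peaks gathered on chromosome 14, with 4 of the 10 farthest. The farthest lay near its start, from 3323676 to 3323834, and had no KP1 peak for 5259 kb; it had the smallest width of the list. The second lay from 115730367 to 115730745 (379 bases), 2720 kb from KP1. The others on chromosome 14 lay from 43147296 to 43147626, at 1261 kb, and from 125158451 to 125158625, at 1136 kb. Outside it, the farthest were on chromosome 1 from 48765097 to 48765257, at 1498 kb, and on chromosome 7 from 67004623 to 67004808, at 1350 kb. The 10 farthest were 159 to 379 bases wide, with a median of 186, so none reached 500 bases. Repeats and mappability were not analysed here.

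The 10 widest KP22-only peaks were spread over 9 chromosomes. The widest lay on chromosome 12 from 92923500 to 92924166 (667 bases) and was itself a near miss, 0.311 kb from a KP1 peak of 718 bases that was shared with another KP22 peak. The next, on chromosome 19 from 34826882 to 34827534 (653 bases), stood 97.9 kb from KP1. The third, on chromosome 13 from 61710367 to 61710941 (575 bases), stood 834 kb from KP1, so it was both wide and remote. Then came peaks on chromosome 3 from 32558076 to 32558643 (568 bases, at 42.5 kb) and on chromosome 2 from 180481375 to 180481927 (553 bases, at 15.3 kb). Over these 10 the gap had a median of 29.1 kb, close to that of all KP22-only peaks.

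All 18 chromosomes held KP22-only peaks, and chromosome 14 had the highest share. There 141 of 303 KP22 peaks were KP22-only, or 46.5% (40.8 to 52.3), against 32.9% (31.9 to 33.9) on the other 17 chromosomes together. Chromosome 16 followed with 141 of 343 (41.1%, 35.9 to 46.5), and chromosome 3 with 179 of 469 (38.2%, 33.7 to 42.7). The lowest share was on chromosome 5, with 180 of 631 (28.5%, 25.03 to 32.2). These were the 4 chromosomes whose interval left out 33.3%, and the intervals are not adjusted for looking at 18.

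**Figure D3:**
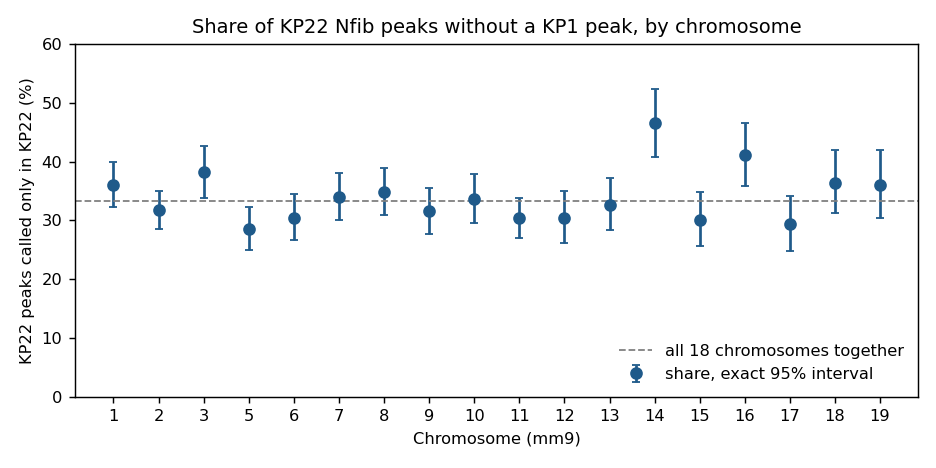
Share of KP22 peaks called only in KP22 (%) on each of the 18 chromosomes, with exact 95% intervals; the dashed line is the share over all of them, 33.3%. Chromosome 14 stands highest at 46.5% and chromosome 5 lowest at 28.5%.

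The share on chromosome 14 was high in narrow and in wide peaks. Below 200 bases, 78 of 118 KP22 peaks there were KP22-only (66.1%), against 50.7% over all chromosomes compared. At 200 bases or more, 63 of 185 were (34.1%), against 23.9%. Narrow peaks made up 38.9% of the KP22 peaks on chromosome 14, within the range of 31.5% to 38.9% over the chromosomes and at its top. Chromosome 14 held 710 KP1 peaks, fewer than each of the other chromosomes compared except 19, which held 612. These counts were not divided by the length of the chromosome. There were 2.34 KP1 peaks per KP22 peak on chromosome 14, against a median of 2.47 over chromosomes (2.23 to 2.80). Of the KP1 peaks on chromosome 14, 77.2% had no KP22 peak, next to 77.3% on chromosome 18 as the highest value. This share rests on the same overlaps as the KP22 share, so it is not separate evidence. The median gap of KP22-only peaks to KP1 was 42.8 kb on chromosome 14 and 47.1 kb on chromosome 3, against 18.4 kb on chromosome 11.

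Within chromosome 14 the share varied. In windows of 10 Mb with at least 20 KP22 peaks, it was at most 60.9% (14 of 23, 38.5 to 80.3), from 100 to 110 Mb. From 70 to 80 Mb it was 55.6% (20 of 36, 38.1 to 72.1). The lowest value there was 20.6% (7 of 34, 8.70 to 37.9), from 50 to 60 Mb. On this chromosome, 85 KP22 peaks lay outside windows with at least 20 and are not described by these shares. Across the 189 such windows of all chromosomes the median was 32.4%. The highest was on chromosome 5 from 90 to 100 Mb, where 21 of 31 KP22 peaks were KP22-only (67.7%, 48.6 to 83.3). Next came chromosome 1 from 60 to 70 Mb, with 15 of 23 (65.2%, 42.7 to 83.6). The lowest was on chromosome 7 from 110 to 120 Mb, with 5 of 40 (12.5%, 4.19 to 26.8). Only 8 windows had an interval wholly above 33.3% and 3 wholly below, with no adjustment for how many windows were examined.

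KP22-only peaks were a larger part of the KP22 peaks where KP1 peaks were sparse. With at most 2 KP1 peaks within 1 Mb on either side, overlapping ones left out, 77 of 139 KP22 peaks were KP22-only (55.4%, 46.7 to 63.8). With 21 to 30 the share was 32.6% (30.6 to 34.6), and with 51 to 104 it was 26.6% (24.0 to 29.3). KP22 peaks were also narrower in sparse surroundings, with medians of 205 and 236 bases at the lowest and highest numbers of neighbours. Among peaks below 200 bases, the share was 61.1% with up to 10 neighbours and 46.8% with 31 or more. Among wider peaks it was 35.7% and 20.9%, so the difference was seen at both widths. The number of KP1 neighbours comes from the list that set membership, and its part in the result was not tested.

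**Figure D4:**
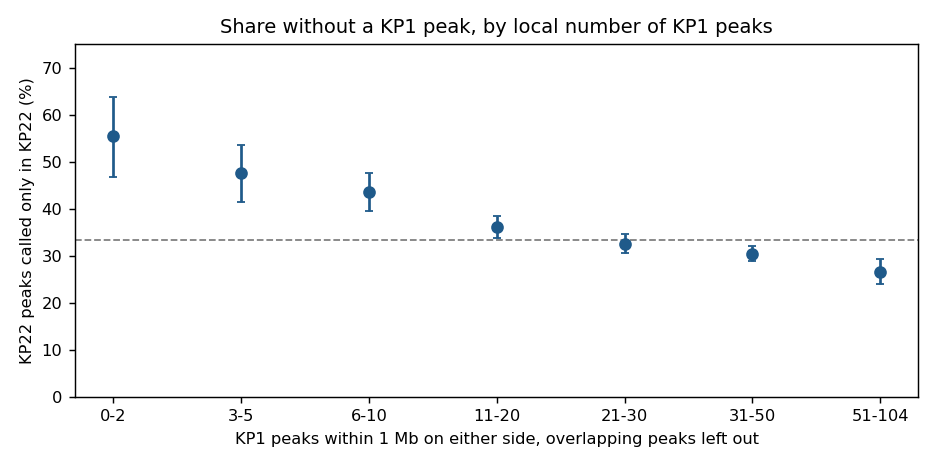
Share of KP22 peaks called only in KP22 (%) by the number of KP1 peaks within 1 Mb on either side, overlapping peaks left out, with exact 95% intervals and a dashed line at 33.3%. The share falls from 55.4% with at most 2 neighbours to 26.6% with 51 to 104.

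KP22-only peaks were also more isolated within their own list. Their nearest other KP22 peak lay at a median of 54.7 kb (quartiles 16.0 and 145), against 42.0 kb (12.1 and 113) for KP22 peaks that overlapped KP1. No other KP22 peak lay within 100 kb for 35.1% of the KP22-only peaks and 27.8% of the others. For 2078 KP22-only peaks (69.0%) the nearest KP1 peak was closer than the nearest other KP22 peak, in a comparison where the KP1 list was 2.49 times as long.

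Most KP22-only peaks stood singly among KP1 peaks. Along the chromosomes, 2082 of them (69.1%) were alone between consecutive KP1 peaks, and 930 (30.9%) stood in runs of at least 2 with no KP1 peak between them. Runs of at least 3 numbered 77, and 9 runs had 5 or 6. The longest held 6 peaks on chromosome 7 from 97777791 to 99549827, a stretch of 1772 kb, and lay in 2054 kb without a KP1 peak. Its peaks were loosely spaced, apart from a pair only 1.21 kb apart. In the mirror count, 1866 KP1-only peaks (11.3%) were alone between KP22 peaks, and the longest KP1-only run held 32. The KP1 list, whose peaks end the KP22-only runs, was 2.49 times as long as the KP22 list. How far single peaks and short runs follow from the lengths of the lists was not tested.

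The tightest of the 9 longest runs lay on chromosome 8 from 71739510 to 71919202, with 5 peaks in 180 kb. These peaks began at 71739510, 71795148, 71907845, 71918386 and 71918907 and were 295, 311, 183, 168 and 296 bases wide. A KP1 peak followed the last of them after 0.205 kb, so the run ended beside a KP1 site. On chromosome 13 from 31419514 to 31639354, 5 peaks stood in 220 kb, with a median width of 274 bases and one of 443 bases. On chromosome 7 from 34840134 to 35112831, 5 peaks of 167 to 256 bases stood in 273 kb. The runs on chromosomes 8 and 13 had the largest median widths, 295 and 274 bases, against 195 bases in all KP22-only peaks. In the remaining runs of at least 5 peaks the median width ran from 177 to 238 bases.

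**Figure D5:**
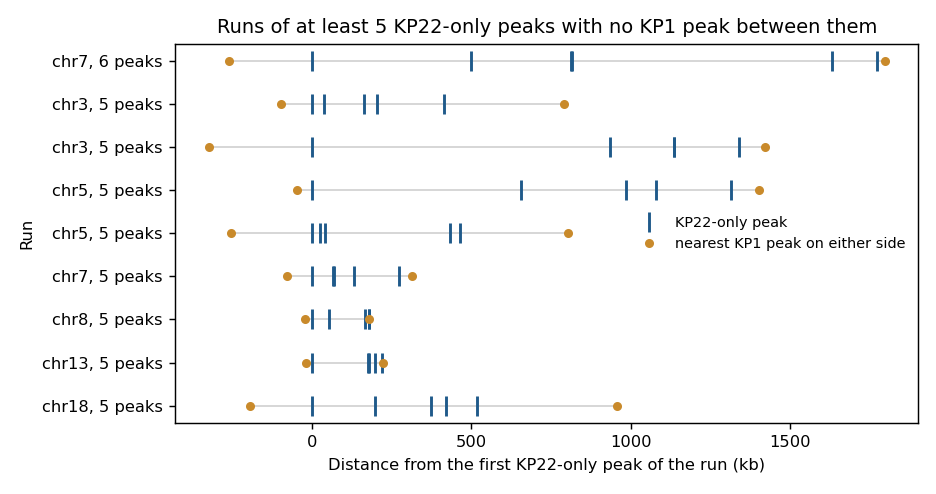
Positions of KP22-only peaks (blue marks) in the 9 runs of at least 5 without a KP1 peak between them, in kb from the first peak of each run; orange points are the nearest KP1 peaks on either side, and marks a few kb apart merge. The runs span from 180 kb on chromosome 8 to 1772 kb on chromosome 7.

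In windows of 1 Mb, KP22-only peaks were found in 1435 windows, 639 of which held a single one. At least 5 fell in 98 windows, which together held 552 of them (18.3%) and had a median of 20 KP1 peaks each. The most in a window was 8, on chromosome 1 from 94 to 95 Mb (of 13 KP22 peaks, beside 18 KP1 peaks), on chromosome 10 from 79 to 80 Mb (of 24, beside 47), and on chromosome 16 from 10 to 11 Mb (of 13, beside 16) and from 17 to 18 Mb (of 13, beside 14). Another 9 windows held 7. Their share ran from 7 of 8 KP22 peaks on chromosome 8 from 71 to 72 Mb down to 7 of 17 on chromosome 14 from 26 to 27 Mb. Among the 98 windows, 1 had no KP1 peak at all, on chromosome 18 from 85 to 86 Mb, where all 5 KP22 peaks were KP22-only. In 44 of the 98, KP22-only peaks were over 50% of the KP22 peaks. The pooled share over all KP22 peaks compared, 33.3%, is a share of peaks and not of windows. How many of the other windows passed 50% was not counted. The 98 windows were chosen for holding many KP22-only peaks, so that choice already favours a high share.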

How the data were processed

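The authors deposited 1 peak list per line with a start and an end in bases, a blank score and a strand that is always +. Per the submitters' processing notes, the tools were Bowtie2, MACS2, DESeq2 and DESeq and the build was mm9; no versions or roles are stated. The calling threshold, the pooling of libraries and the handling of duplicates change which peaks are called; no label states them. The list labelled 16T held no interval, and the authors' table of merged regions gives no position, so neither was used. The gene and promoter tables at hand are of another build, so genes, motifs and sequences were not analysed here.

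Overlaps (at least 1 base), gaps and windows were computed with numpy 2.4.6 and pandas 2.3.3 (Python 3.11.15); scipy 1.17.1 gave the binomial intervals and matplotlib 3.10.9 the plots. The overlap routine was tested on simulated intervals. Intervals of shares are exact Clopper-Pearson 95% intervals. Regions named were the 10 farthest from, and closest to, a KP1 peak, the 10 smallest overlaps, the 10 widest, and the 10 longest runs and densest 1 Mb windows, described by their leading members. Members and descriptions were chosen with earlier results of these data known. The width classes, 10 Mb windows, local KP1 numbers and the comparison at 150 bases were added after seeing the lists.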

Additional observations from a re-analysis of the deposited data

How the results depend on the processing

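The number of peaks called only in KP22 depended on which peaks count. It was 1402 among the 5856 KP22 peaks of at least 200 bases, where fewer peaks entered and the share was also lower. It was 4519 when only KP1 peaks of at least 200 bases could cover a KP22 peak, because fewer KP1 peaks entered. Under the other rules it ran from 2186 to 4008. The share, 33.3%, was 44.4% with a reciprocal overlap of at least 50%, 30.5% and 24.2% when a gap of at least 1000 or 10000 bases was asked for, 23.9% and 50.02% with the limits of 200 bases on KP22 and KP1 peaks, and 36.2% with both lists at 150 bases, a comparison chosen after seeing the data. Adding chromosomes 4 and X gave 33.9%. The median width became 200 bases with a reciprocal overlap of at least 50%, and the median gap 40.1 kb with KP1 peaks of at least 200 bases. Windows shifted by 500 kb gave 83 dense windows in place of 98. Among the 18 chromosomes described, which leave out X, chromosome 14 had the highest share and chromosome 16 the second highest under each of these rules; on chromosome 14 it ran from 34.1% to 63.7%.

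No paired analysis was possible because each line has 1 peak list with no value per library. Leaving out replicates was not run for the same reason. The planned motif comparison was not run, since no genome of the build was used here. A stricter calling threshold was replaced by width, because scores are blank.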

Other observations

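The rule left out KP22 peaks without a KP1 peak on chromosome 4 (270 of 859 KP22 peaks, 31.4%), on chromosome X (142 of 213, 66.7%) and on sequences not placed in a chromosome (10 peaks). The share on chromosome X was above that of each of the 18 chromosomes described, which ran from 28.5% to 46.5%. This difference was not tested.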
